A study of Mus musculus with 7 samples.

Results

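CD11b and F4/80 are 2 of the macrophage proteins among the 25 target proteins that were read around vascular amyloid deposits in aged PDAPP mice. CD14 and CD163, also of monocytes and macrophages, were in the panel as well. Both rows of CD11b and F4/80 in the table of counts were taken as the members (2 of 25 targets). Their values are given for every region, by antibody treatment and by vessel type, and then set against each other and against the other targets within single mice. CD11b is the product of Itgam and F4/80 that of Adgre1 (gene identifiers 16409 and 13733 in the RefSeq annotation of GRCm38.p6).

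CD11b is the alpha chain of the integrin Mac-1, also called complement receptor 3, which binds the complement fragment iC3b and the adhesion molecule ICAM-1. It sits on microglia, monocytes, macrophages and neutrophils, so that it marks myeloid cells as a whole. F4/80 is an adhesion G protein-coupled receptor of mouse macrophages and is the classical surface marker of mature tissue macrophages, while neutrophils lack it. In the brain both proteins are found on microglia of the parenchyma and on the macrophages that lie along the vessels of the meninges and in the perivascular spaces, where vascular amyloid is deposited.

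The treated mice received the anti-amyloid antibody 3D6, which recognizes the free amino terminus of Aβ (25 mg/kg, 1 injection a week, mice 72, 77, 81 and 83), and the control mice an IgG2a isotype antibody (50 mg/kg, 2 injections a week, mice 29, 37 and 49). Antibody, dose and schedule differed together between the groups and cannot be told apart. All mice carried the PDAPP transgene, a mutant human amyloid precursor protein driven by the PDGF promoter, were of both sexes, were treated for 3 months and were 23 to 26 months old. In each brain section circular regions of 100 µm were placed around amyloid that was stained together with laminin, regions 1 to 12 in the leptomeninges and regions 13 to 24 around penetrating vessels. Proteins were counted by GeoMx digital spatial profiling, in which each antibody carries an oligonucleotide tag that is released from a region by ultraviolet light and counted.

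Values were present for 166 of 168 regions, since 2 leptomeningeal regions of IgG mouse 37 held none. A region's total over 31 probes lay between 2571 and 30248 in 3D6 mice and between 3361 and 254884 in IgG mice. Each value is the log2 of a protein's count over the geometric mean of the 3 negative control antibodies in the same region, so that 0 marks the level of the negative controls. A mouse was 1 replicate, represented by the mean of its regions at a site. Negative controls exceeded 10 times the median of all regions in 6 regions, all of them in IgG mouse 37 (1 leptomeningeal and 5 penetrating). The instrument's warning of few nuclei was set in 43 regions, among them all 10 leptomeningeal regions of mouse 37. Median nuclei per leptomeningeal region were 111.5 in 3D6 mouse 72 and 97.0 in IgG mouse 29, which shared a readout run, against 23.5 to 36.5 in the other 3D6 mice and 11 and 17.5 in the other IgG mice. A region is a mixed piece of tissue, and more macrophages cannot be told apart from more protein per macrophage.

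Both proteins stood above the negative controls in nearly every region. CD11b was above them in all 166 regions, with a lowest value of 1.26 in 3D6 mice and 1.43 in IgG mice. F4/80 was below them in 1 of 48 penetrating regions of 3D6 mice (-0.21) and in 1 of 36 of IgG mice (-0.06), and in none of the leptomeningeal regions. CD11b was thus the stronger signal of the pair, at a group mean between 6.26 and 18.8 times the negative controls, while F4/80 lay between 1.98 and 6.35 times. The counts behind these values were modest for F4/80, which ranged between 7.35 and 378 in regions of 3D6 mice and between 10.7 and 1824 in those of IgG mice, with the highest in a region of mouse 37.

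Around leptomeningeal amyloid both proteins were higher in 3D6 mice. CD11b averaged 4.48, 4.22, 3.20 and 5.04 in 3D6 mice 72, 77, 81 and 83, against 2.79, 2.78 and 2.37 in IgG mice 29, 37 and 49. Every 3D6 mouse lay above every IgG mouse, with mouse 81 the nearest to the controls. F4/80 averaged 2.73, 2.84, 2.15 and 2.94 in the 3D6 mice in the same order, against 1.76, 0.82 and 0.96 in the IgG mice. Here too the groups did not overlap, with mouse 81 again the lowest 3D6 mouse and mouse 29 the highest IgG mouse. At this site every 3D6 mouse lay above every IgG mouse for 20% of all 25 targets, and below for 4%.

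The difference between the group means was 1.59 for CD11b (SE 0.43, 95% interval 0.64 to 2.54, 3.01-fold, limma adjusted p = 0.0190) and 1.48 for F4/80 (SE 0.35, 0.70 to 2.27, 2.80-fold, limma adjusted p = 0.0110). Both members were called higher, beside 16% of all targets in that direction. The exact permutation test over mice gave p = 0.0571 for CD11b and p = 0.0286 for F4/80, the second of which is the smallest value that 4 against 3 mice can give. The negative controls by which every count was divided tended the other way, at a mean log2 of 3.84 ± 0.39 in 3D6 mice and 4.46 ± 0.19 in IgG mice (SD, n = 4 and 3, exact permutation p = 0.0571). Without any division the differences were 0.98 for CD11b and 0.87 for F4/80, and with the 3 housekeeping proteins as divisor 0.75 and 0.65. Neither passed the test on these scales, at limma adjusted p of 0.173 for each without division and of 0.214 and 0.224 with the housekeepers. A change of divisor shifts all 25 targets by the same amount, and the median of all targets was 0.57 over the negative controls, -0.04 without division and -0.27 over the housekeepers. Relative to that median CD11b was 1.01 and F4/80 0.91 higher, the third and the fourth of 25 targets. These distances and ranks are the same on the 3 scales by construction and are no check of the divisor. The CD11b call was also lost without IgG mouse 29 (difference 1.66, limma adjusted p = 0.0622) or IgG mouse 49 (1.45, limma adjusted p = 0.0680), and the F4/80 call in none of the 7 fits that left out a mouse.

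**Figure D1:**
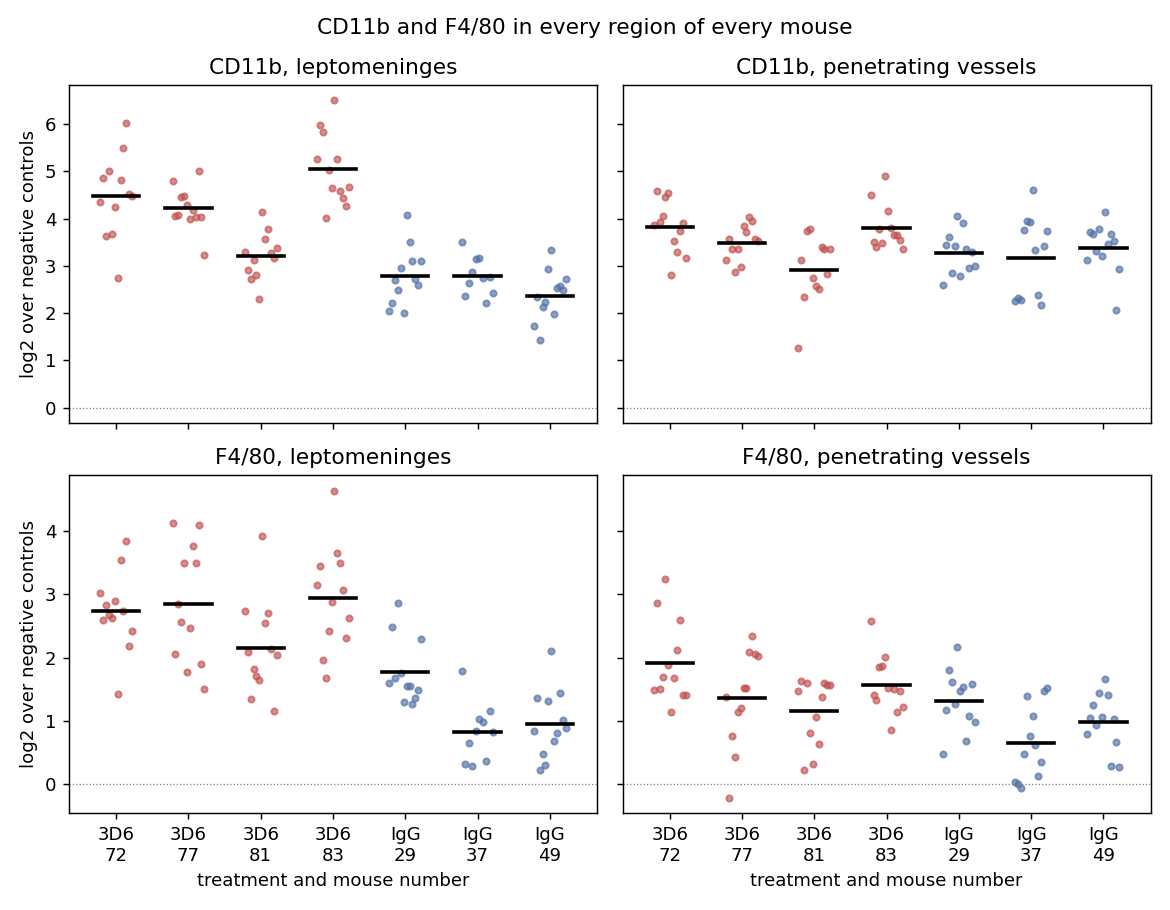
Each point is 1 region, on a y axis of log2 counts over the negative controls, for CD11b (top) and F4/80 (bottom) in leptomeninges (left) and penetrating vessels (right); black bars are mouse means and the dotted line is the level of the negative controls. In the leptomeninges the 4 bars of the 3D6 mice lie above the 3 of the IgG mice for both proteins, while the bars overlap around penetrating vessels.

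Single regions overlapped more than the mouse means did. Of 48 leptomeningeal regions of 3D6 mice, 45 had more CD11b than the mean of the highest IgG mouse, and 28 exceeded the highest of all 34 IgG regions (4.07). For F4/80 41 of the 48 exceeded the highest IgG mouse mean, and 17 exceeded the highest IgG region (2.86). Regions of 1 mouse also differed among themselves. Their SD averaged 0.64 for CD11b and 0.78 for F4/80 in leptomeninges of 3D6 mice, and 0.51 and 0.50 in those of IgG mice. The most CD11b and the most F4/80 of all regions, 6.50 and 4.63, were read in the same region of 3D6 mouse 83.

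Around penetrating vessels neither protein differed beyond its error. CD11b averaged 3.82, 3.49, 2.92 and 3.81 in 3D6 mice 72, 77, 81 and 83, against 3.27, 3.17 and 3.39 in IgG mice 29, 37 and 49. The lowest of all 7 mice was 3D6 mouse 81, and the 3 IgG mice lay close together within the range of the 3D6 mice. F4/80 averaged 1.92, 1.36, 1.16 and 1.56 in the 3D6 mice, against 1.32, 0.65 and 0.99 in the IgG mice. Mice 72, 77 and 83 exceeded all 3 control values, while mouse 81 lay below mouse 29.

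The difference was 0.23 for CD11b (SE 0.30, 95% interval -0.45 to 0.91, limma adjusted p = 0.802) and 0.51 for F4/80 (SE 0.30, -0.17 to 1.19, limma adjusted p = 0.754), with exact permutation p of 0.371 and 0.114. The interval of F4/80 reaches up to 1.19 and that of CD11b up to 0.91, so that differences up to these sizes remain compatible with the values. The direction turned without division, to -0.72 for CD11b and -0.44 for F4/80, and CD11b gave 0.020 without the 5 regions of mouse 37 with high negative controls. No target was called at this site, so the background was 0%. An unadjusted p under 0.05 was found for 2 targets in limma and for 2 without moderation of the variances, and neither member was among the limma pair. IgG mouse 37 was divided at this site. Its 5 regions with high negative controls held 2402 to 6398 counts of CD11b but only 2.16 to 2.38 on the log2 scale, while the other 7 held 173 to 302 counts and 3.32 to 4.59.

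Over the negative controls, the treatment difference itself was larger in the leptomeninges than around penetrating vessels. Expressed as the site difference within each mouse (leptomeninges minus penetrating vessels), CD11b had 0.66, 0.73, 0.28 and 1.23 in 3D6 mice 72, 77, 81 and 83, against -0.48, -0.39 and -1.02 in IgG mice 29, 37 and 49. CD11b lay on opposite sides of 0 in the treatment groups on this scale, but with the housekeepers as divisor the group means were both positive, at 0.81 in 3D6 mice and 0.33 in IgG mice. F4/80 had 0.81, 1.48, 1.00 and 1.38 in the 3D6 mice, against 0.44, 0.17 and -0.03 in the IgG mice. The lowest 3D6 mouse exceeded the highest IgG mouse for both proteins, which held for 40% of the targets.

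The treatment by site difference was 1.36 for CD11b (SE 0.34, 95% interval 0.60 to 2.12, limma adjusted p = 0.0177) and 0.97 for F4/80 (SE 0.31, 0.27 to 1.68, limma adjusted p = 0.0417). Both members were called, beside 24% of the targets in the same direction. The exact permutation p was 0.0286 for each, the smallest possible. Within the 3 readout runs the CD11b value was 1.78, 1.12 and 1.14 and the F4/80 value 1.22, 1.31 and 0.37, where the last is the run of the 2 mice with many nuclei. With the run as a block the adjusted p in limma was 0.0827 for CD11b and 0.173 for F4/80. The call of F4/80 was lost in 6 of the 7 fits that left out a mouse, all but that without 3D6 mouse 72, at differences of 0.86 to 1.10. The CD11b call was lost without IgG mouse 29 or 49, at 1.43 and 1.16. With the housekeepers as divisor the values were 0.47 and 0.089, and without division 1.70 and 1.32. Neither member was called on either of these scales. The median of all targets was -0.25 with the housekeepers as divisor against 0.63 over the negative controls. Relative to the median CD11b was 0.72 and F4/80 0.34 higher with either divisor. These distances cannot change with the divisor, which shifts all targets equally, and so are no check of it. The housekeepers themselves had a mean log2 site difference of 0.14 ± 0.45 in 3D6 mice and -1.09 ± 0.97 in IgG mice (SD, n = 4 and 3, exact permutation p = 0.0857).

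**Figure D2:**
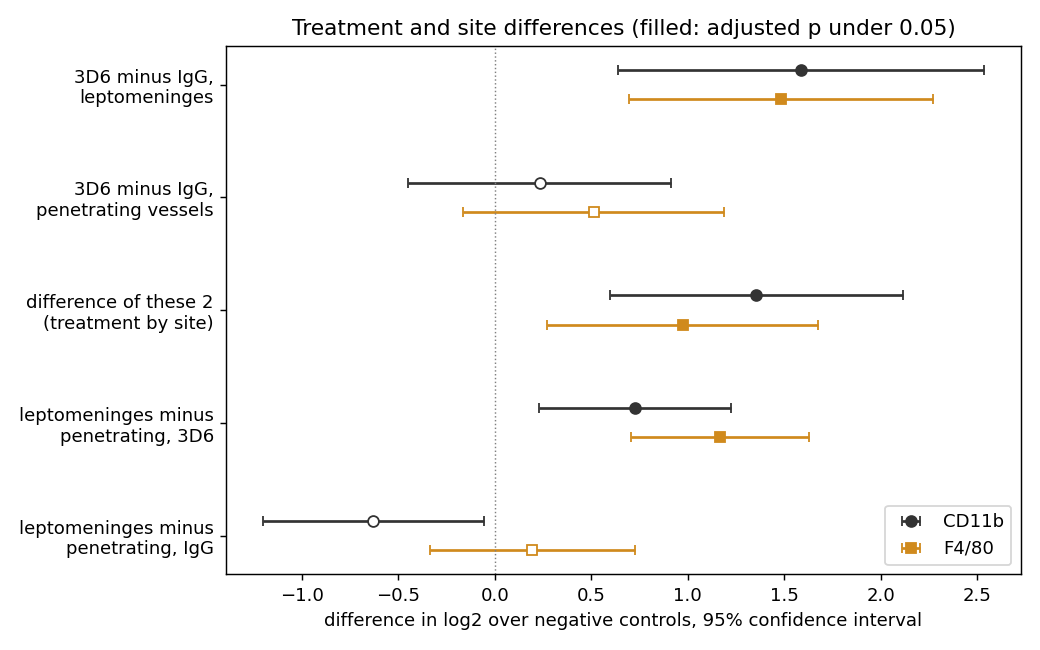
Points are differences in log2 counts over the negative controls from limma on mouse means, with 95% confidence intervals as bars, for CD11b (circles) and F4/80 (squares); filled symbols have an adjusted p under 0.05. Both proteins are filled for treatment in the leptomeninges, for treatment by site and for site within 3D6 mice, and open for treatment around penetrating vessels and for site within IgG mice.

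Within 3D6 mice both proteins were higher in the leptomeninges, and within IgG mice neither was called. In 3D6 mice CD11b was 0.73 higher in leptomeninges than around penetrating vessels (SE 0.22, limma adjusted p = 0.0315) and F4/80 was 1.17 higher (SE 0.21, limma adjusted p = 0.00184), beside 24% of targets called higher in that comparison. The F4/80 call held in all 20 alternative fits. The CD11b call was lost in 12 of 20, among them those without 3D6 mouse 72, 77 or 83. With the housekeepers as divisor it was 0.81 (limma adjusted p = 0.0782). In IgG mice CD11b had a difference of -0.63 (SE 0.26, 95% interval -1.20 to -0.06, limma adjusted p = 0.0864) and F4/80 one of 0.19 (SE 0.24, -0.34 to 0.73, limma adjusted p = 0.596), so that neither was called, where 28% of the targets were called lower. Without the 6 regions of high negative controls, the difference of leptomeninges minus penetrating vessels in IgG mice was -0.85 for CD11b (limma adjusted p = 0.0257). With the housekeepers as divisor this site difference was 1.16 for F4/80 (limma adjusted p = 0.0279), and the direction of CD11b turned, to 0.33 (limma adjusted p = 0.520).

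Averaged over both treatments, F4/80 was higher in the leptomeninges than around penetrating vessels, while CD11b did not differ beyond its error. The F4/80 difference was 0.68 (SE 0.16, 95% interval 0.33 to 1.03, 1.60-fold, limma adjusted p = 0.00494), and it was higher in leptomeninges in 6 of 7 mice. CD11b had a difference of 0.05 (SE 0.17, -0.33 to 0.43, limma adjusted p = 0.885) and was higher in 4 of 7 mice, the 4 that received 3D6. With the housekeepers as divisor the CD11b difference was 0.57 (limma adjusted p = 0.0940), and under 5 other settings it lay slightly below 0. F4/80 was 1 of 6 targets called higher in leptomeninges (24%), where 52% were called in either direction. Its call was lost without division (0.73, limma adjusted p = 0.107) and with the Rt IgG2b control alone as divisor (0.59, limma adjusted p = 0.154).

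The quotient of the 2 proteins in a region needs no divisor and gives this contrast directly. Because antibodies differ in affinity and labelling, the quotient carries no meaning as an amount, and only its differences are read. The log2 of F4/80 over CD11b averaged -1.75, -1.38, -1.05 and -2.10 in leptomeninges of 3D6 mice 72, 77, 81 and 83, against -1.90, -2.14, -1.76 and -2.25 around their penetrating vessels. In IgG mice 29, 37 and 49 it averaged -1.03, -1.96 and -1.41 in leptomeninges, against -1.95, -2.52 and -2.40 around penetrating vessels. The quotient was higher in leptomeninges in each of the 7 mice, by as little as 0.15 in mice 72 and 83 and as much as 0.99 in mouse 49.

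The mean difference between sites was 0.61 ± 0.34 (SD over 7 mice, 1.52-fold), with an exact sign-flip p of 0.0156, the smallest that 7 mice can give. It lay between 0.54 and 0.68 when each mouse was left out. Its call held in all 11 alternatives. In the 7 that left out a mouse it could not be lost, since every mouse had a positive difference. By treatment the quotient did not differ beyond its spread. In leptomeninges it was -1.57 ± 0.46 in 3D6 mice and -1.47 ± 0.47 in IgG mice (SD, n = 4 and 3), a difference of -0.10 with an exact permutation p of 0.771. Around penetrating vessels it was -2.01 ± 0.22 in 3D6 mice and -2.29 ± 0.30 in IgG mice, a difference of 0.28 with an exact permutation p of 0.229. The adjusted p over the 2 sites was 0.771 and 0.457. Within runs the leptomeningeal difference took both signs (-0.16, 0.58 and -0.73).

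**Figure D3:**
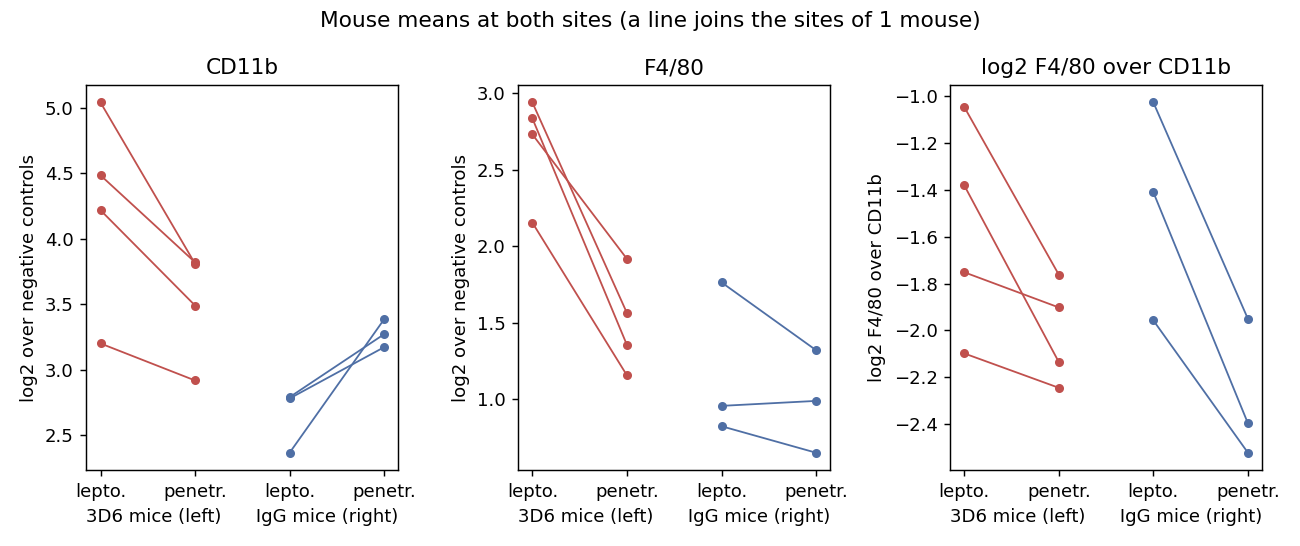
Each line joins the leptomeningeal and the penetrating mean of 1 mouse, for CD11b, F4/80 (both log2 counts over the negative controls) and the log2 of F4/80 over CD11b; 3D6 mice stand left and IgG mice right in each panel. CD11b lines slope down in the 4 3D6 mice and up in the 3 IgG mice, whereas the quotient slopes down in all 7.

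Within mice, regions with more CD11b mostly had more F4/80. In leptomeninges the correlation of the 2 proteins over regions was r = 0.70, 0.71, 0.80 and 0.59 in 3D6 mice 72, 77, 81 and 83, and -0.17, 0.74 and 0.79 in IgG mice 29, 37 and 49. Mouse 29 thus stood apart from the other 6, and it is the control mouse with many nuclei and with the most leptomeningeal F4/80. Around penetrating vessels r was 0.60, 0.54, 0.25 and 0.62 in the 3D6 mice, and 0.60, 0.78 and 0.55 in the IgG mice. All 7 were positive at this site. Each rests on 12 regions, except 10 in leptomeninges of mouse 37, and the 2 proteins of a region share its divisor and its tissue content.

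With mouse means removed, r over leptomeningeal regions was 0.64 in 3D6 mice (rho 0.55, 48 regions) and 0.38 in IgG mice (rho 0.41, 34 regions). Without mouse 29 the IgG value was 0.77, and without the regions of few nuclei, which leaves mainly mouse 29, it was -0.17. Around penetrating vessels r was 0.45 in 3D6 mice (rho 0.52, 48 regions) and 0.67 in IgG mice (rho 0.70, 36 regions). The IgG value was 0.48 without the regions of high negative controls. Tested over mice on Fisher's z, the coupling did not differ beyond the spread between treatments in leptomeninges (difference 0.26, exact permutation p = 0.657), between treatments around penetrating vessels (-0.22, exact permutation p = 0.400) or between sites (0.11, exact sign-flip p = 0.594), and the adjusted p over these 3 tests was 0.657 for each. The smallest exact permutation p that 4 against 3 mice can give is 0.0286. After adjustment over 3 tests, a treatment difference in coupling at 1 site could therefore not be called by itself, whatever its size.

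**Figure D4:**
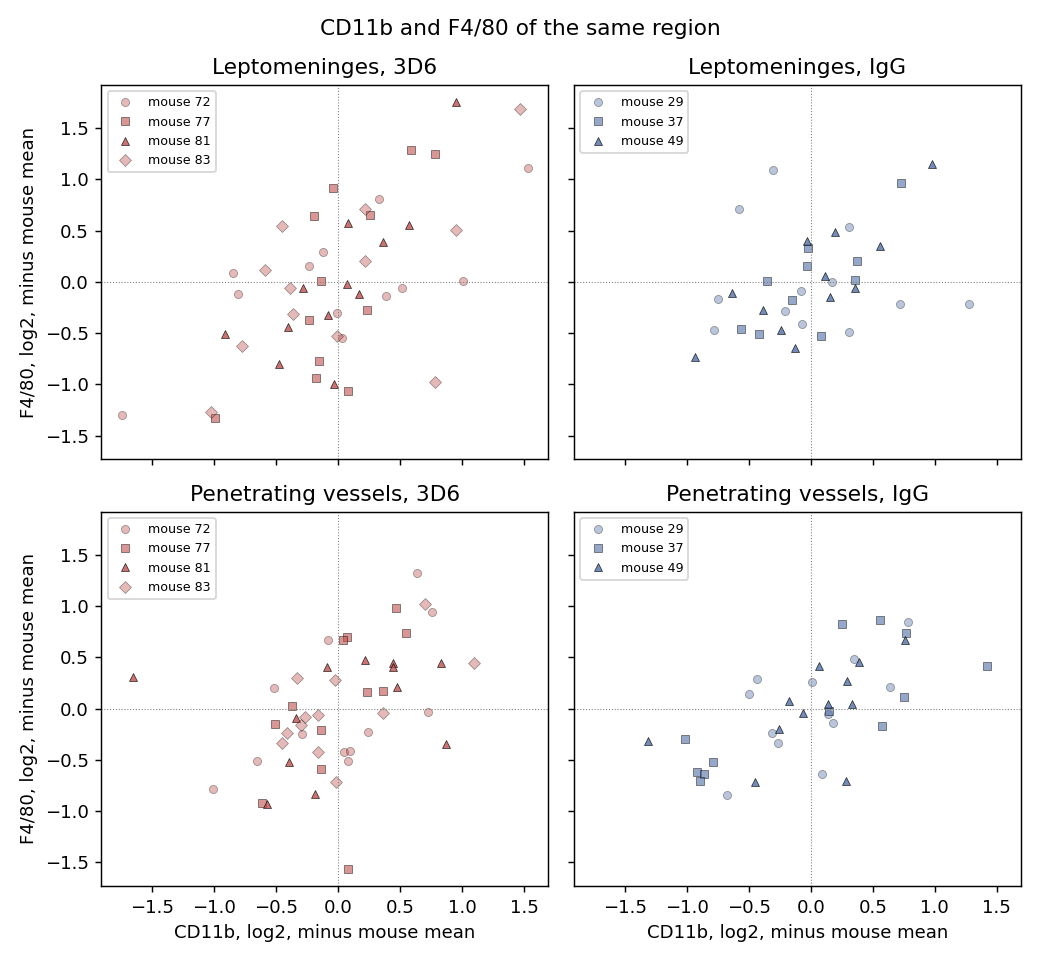
Each point is 1 region, with CD11b on the x axis and F4/80 on the y axis, both in log2 counts over the negative controls minus the mean of that mouse at that site; symbols mark mice. The clouds run upwards in all panels, least so in leptomeninges of IgG mice, where the circles of mouse 29 scatter (r -0.17 against 0.74 and 0.79).

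CD45, the phosphatase on the surface of all leukocytes, was the partner that followed both members most closely in leptomeninges. There its r over all 7 mice was 0.75 with CD11b (rho 0.72, positive in 7 of 7 mice, 0.63 to 0.97) and 0.66 with F4/80 (rho 0.57, positive in 6 of 7), the first rank of 24 partners for each member. It also kept the first rank for both without division and with the housekeepers. CD11c, an integrin of dendritic cells and of activated microglia, followed with 0.57 for CD11b and 0.61 for F4/80, positive in 7 of 7 mice for both. The member's own partner completed the first 3 places, at 0.57. The lowest values for CD11b were those of CTLA4, an inhibitory receptor of T cells (0.04), and of SMA, the smooth muscle actin of the vessel wall (-0.01). For F4/80 they were those of CD14, the co-receptor for lipopolysaccharide on monocytes (-0.09), and of SMA (-0.19).

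Around penetrating vessels 2 of the 3 leading partners of each member were those of the leptomeninges. CD11b was closest to CD45 (0.65), CD11c (0.61) and CD34 (0.57), a sialomucin of endothelial and progenitor cells, each positive in all 7 mice. F4/80 was closest to CD11b (0.54), to Fibronectin (0.53), a matrix glycoprotein that also comes from plasma, and to CD45 (0.51), again each positive in all 7 mice. CD11c had an r of 0.61 with CD11b against 0.25 with F4/80, and CD14 one of 0.42 against -0.01. Over the 23 partners that they share, the profiles of r of CD11b and F4/80 correlated at 0.82 in leptomeninges and at 0.60 around penetrating vessels, where partners are not independent of each other. The lowest values were those of FOXP3 (-0.05) and CD4 (-0.08) for CD11b and of CD28 (-0.05) and PD-1 (-0.08) for F4/80. CD4, CD28 and FOXP3 averaged below the negative controls in both groups at this site, at 0.44, 0.47 and 0.52 times in 3D6 mice and 0.34, 0.50 and 0.59 times in IgG mice. PD-1 averaged 0.64 times in 3D6 mice and 1.14 times in IgG mice, so that the r of these 4 targets describes signal near the level of the negative controls. The values also depended on the regions of high negative controls, and without them the 4 values were 0.089, 0.18, 0.12 and 0.064.

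Most partners had a positive r with the members. In leptomeninges 23 of 24 had a positive r with CD11b (median 0.25) and 22 of 24 with F4/80 (median 0.30), and around penetrating vessels 18 and 19 did (medians 0.28 and 0.16). Without division the medians were 0.59 and 0.57 in leptomeninges and 0.83 and 0.82 around penetrating vessels. A positive r with a member was thus the rule. The order of the partners also moved with the divisor. SMA, rank 24 of 24 with CD11b in leptomeninges, was at rank 22 without division and 6 with the housekeepers, and rank 24, 23 and 13 with F4/80. CTLA4 with CD11b was at rank 23, 16 and 17 there, and CD34 with CD11b around penetrating vessels at rank 3, 7 and 7. With the housekeepers the first 3 partners of CD11b were CD45, CD11c and F4/80 at both sites.

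**Figure D5:**
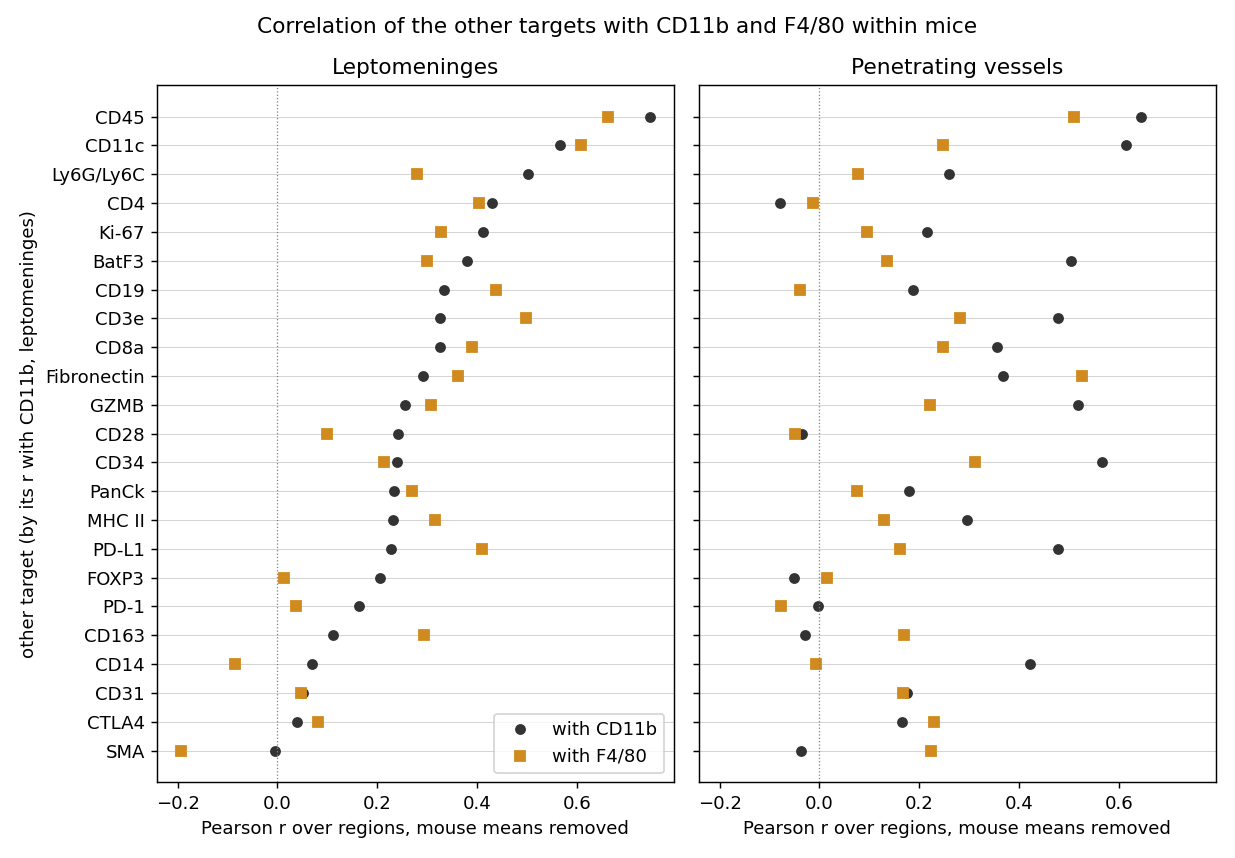
Pearson's r of each of the other 23 targets with CD11b (circles) and F4/80 (squares), over 82 leptomeningeal and 84 penetrating regions of 7 mice with mouse means removed; targets are in the order of their leptomeningeal r with CD11b. CD45 is at the top at both sites for CD11b (0.75 and 0.65), and the circles and squares of CD11c and CD14 part around penetrating vessels.

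By treatment, CD45 and CD11b correlated at 0.77 in 3D6 mice and 0.70 in IgG mice in leptomeninges, and at 0.61 and 0.69 around penetrating vessels. CD45 and F4/80 correlated at 0.70 in 3D6 mice and 0.52 in IgG mice in leptomeninges, where 1 of the 3 IgG mice had -0.11. Around penetrating vessels they correlated at 0.56 in 3D6 mice and 0.43 in IgG mice, and the IgG value was 0.21 without the regions of high negative controls. Ly6G/Ly6C, the antigens of neutrophils and of inflammatory monocytes, had an r with CD11b of 0.61 in 3D6 mice and 0.34 in IgG mice in leptomeninges, against 0.37 and 0.13 with F4/80. Fibronectin and F4/80 correlated at 0.60 in 3D6 mice and 0.35 in IgG mice around penetrating vessels, and at 0.37 and 0.35 in leptomeninges. CD163, the haemoglobin scavenger receptor of perivascular macrophages, had an r with F4/80 of 0.24 in 3D6 mice and 0.43 in IgG mice in leptomeninges, and of 0.05 and 0.23 with CD11b. It averaged 0.60 times the negative controls in 3D6 mice and 0.91 times in IgG mice there, so its r describes signal near their level. None of these differences in r was tested.

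The number of nuclei in a region followed the members only loosely. In leptomeninges of 3D6 mice its r, on log2 of nuclei plus 1, was 0.36 with F4/80 and 0.18 with CD11b, each positive in 4 of 4 mice. In leptomeninges of IgG mice it was 0.09 and 0.14. Around penetrating vessels the values lay between -0.09 and 0.16, and single mice ranged from -0.75 to 0.85. Given the nuclei, the r of the pair in the 4 groups of regions stayed within the spread between mice. Log2 of nuclei plus 1 averaged 5.32 ± 0.92 in 3D6 mice and 4.80 ± 1.53 in IgG mice in leptomeninges (SD, n = 4 and 3, exact permutation p = 0.514). Nuclei entered the treatment comparison only as a covariate in fits over regions, which in leptomeninges called 7 targets, both members among them. Such fits called 12 targets without the covariate, against 5 over mouse means, and so call more readily. The part of nuclei in the treatment difference over mouse means was not tested.

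None of the other 6 proteins of the myeloid list was called for treatment at either site. The list held CD11b, F4/80, CD11c, CD14, CD163, Ly6G/Ly6C, BatF3 (a transcription factor of dendritic cells) and MHC II, which presents antigen. In leptomeninges 2 of 8, the members, were called higher in 3D6 mice and none lower, beside 16% and 4% of all 25 targets. The median difference of the list was 0.76, beside 0.57 over all 25 targets. MHC II had a difference of 0.73 (limma adjusted p = 0.0974), CD11c one of 0.78 (limma adjusted p = 0.222) and Ly6G/Ly6C one of 0.94 (limma adjusted p = 0.243). BatF3 had 0.45, and CD14 and CD163 had -0.58 and -0.60, where CD14 and CD163 mark monocytes and scavenging macrophages. CD163 averaged below the negative controls in both groups there. Around penetrating vessels 0 of 8 were called, beside 0% of all targets, with a median of -0.10 beside -0.02 over all targets. CD45 and Fibronectin were called higher in leptomeninges, at 2.46 (limma adjusted p = 0.000959) and 2.64 (limma adjusted p = 0.00327), and had 0.97 and 0.58 around penetrating vessels, neither called.

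For treatment by site, 3 of 8 of the list were called higher, beside 24% of all 25 targets. They were both members and Ly6G/Ly6C at 1.27 (limma adjusted p = 0.0417), with a list median of 0.72 beside 0.63 over all targets. By site, averaged over treatments, F4/80 was the only one of the 8 called higher in leptomeninges, beside 24% of all 25 targets. CD14 fell by 1.80 there (limma adjusted p = 0.00054), BatF3 by 0.87 (limma adjusted p = 0.00389) and Ly6G/Ly6C by 0.70 (limma adjusted p = 0.0136). Of all 25 targets 28% were called lower in that comparison. F4/80 and CD14, both of monocytes and macrophages, thus had opposite site differences when averaged over treatments. These were 1.17 and -1.87 in 3D6 mice, and 0.19 (not called) and -1.72 in IgG mice. Their r within mice was -0.09 in leptomeninges and -0.01 around penetrating vessels. By treatment it was -0.24 in 3D6 mice and 0.18 in IgG mice in leptomeninges, and -0.22 and 0.28 around penetrating vessels, a contrast that was not tested.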

How the data were processed

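The 7 PDAPP mice analysed were 4 given 3D6 and 3 given IgG, with 12 leptomeningeal and 12 penetrating regions each. The authors removed a further mouse before deposit, per the file headers. The deposited digital counts are described by the authors as not normalized but hold fractions, after calibration and positive control factors, and were used as other values rather than whole counts. No value was 0. The divisor of a region was the geometric mean over its Rt IgG2a, Rt IgG2b and Rb IgG counts (3 negative controls), and quotients were put on the log2 scale with nothing added. The housekeepers were GAPDH, Histone H3 and S6. Deposited nuclei numbers and quality warnings were also read. Section thickness is stated differently in the sources and was not used. The sources also differ on region 12, since 1 of them gives regions 12 to 24 as penetrating and the others 13 to 24, which was followed here. The deposited normalized scores were not used here.

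Means per mouse and site were compared with limma 3.58.1 (R 4.3.3, moderated variances), with both sites of a mouse taken as a difference for site and treatment by site. P-values were adjusted by Benjamini-Hochberg over 25 targets and called under 0.05. Single values were tested two-sided by exact permutation of mice between groups or by exact sign flips, enumerated in numpy 2.4.6. Spearman's rho was taken from scipy 1.17.1. Correlations over regions are descriptions. The fits were tested on simulated data. Alternatives were other divisors, medians, adding 1 count first, leaving out targets under 2 times the controls, regions with the mouse as a block, the run as a block, region exclusions, Holm adjustment and each mouse left out. Named in the text are the members, CD45, Fibronectin, the myeloid list and, per member and site, the 3 targets of highest and 2 of lowest r. Other partners named by treatment (Ly6G/Ly6C, CD163) belong to that list. The members and lists were chosen with earlier results of these data known. Precision is limited by 3 and 4 mice, and intervals cover the spread between these mice.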

Additional observations from a re-analysis of the deposited data

Results flagged for a closer look

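The treatment difference of CD11b differed between the sites, by 1.36 on the log2 scale (limma adjusted p = 0.0177), being larger in leptomeninges. That of F4/80 did so by 0.97 (limma adjusted p = 0.0417). In both cases the site differences of the 4 3D6 mice lay above those of the 3 IgG mice, which held for 40% of all 25 targets. Both calls were lost with the housekeepers as divisor and without division. No mouse of the 3D6 group stood apart by Dixon's criterion in any of the 8 sets of 4 values examined (both proteins, their quotient and their correlation at each site).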

How the results depend on the processing

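The leptomeningeal treatment difference of CD11b kept its direction in all 22 alternatives and its call in 15, and that of F4/80 kept its call in 19. CD11b gave 0.75 with the housekeepers as divisor, 0.98 without division and 1.21 with Rt IgG2a alone, and its value of 1.59 missed the threshold without moderation of the variances and under Holm adjustment. F4/80 gave 0.65, 0.87 and 1.10 under the first 3 of these. Leaving out each mouse gave 1.32 to 1.93 for CD11b and 1.31 to 1.78 for F4/80. The number of targets called (5) was 11 with Rb IgG alone, 12 over regions with the mouse as a block and 3 without moderation, and 3 to 8 with a mouse left out (3 without IgG mouse 29, 8 without IgG mouse 37). Around penetrating vessels neither member was called in any alternative, but the direction turned without division (CD11b -0.72, F4/80 -0.44), and without regions of high negative controls they gave 0.020 and 0.38. There 1 target was called over regions with the mouse as a block, with or without nuclei as a covariate.

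For treatment by site, CD11b kept its call in 8 and F4/80 in 6 of 13 settings other than leaving out each mouse. CD11b lost it at 0.47 with the housekeepers, 1.70 without division and 1.42 with Rt IgG2b alone. It also did so at 1.39 with the run as a block and at 1.36 under Holm adjustment. F4/80 lost its call at 0.089, 1.32, 1.04 and 0.99 under the first 4 of these settings. It also did so at 1.00 with medians per mouse, 1.28 without regions of few nuclei (which drops IgG mouse 37 from the leptomeninges) and 0.97 under Holm adjustment. Leaving out each mouse gave 1.16 to 1.50 for CD11b and 0.86 to 1.10 for F4/80. The targets called (7) were 1 with the housekeepers, without division or under Holm adjustment, 2 with Rt IgG2b alone, 3 with medians or without regions of few nuclei, 0 with the run as a block (limma), and 0 to 6 with a mouse left out (0 without IgG mouse 29, 3 without IgG mouse 49 or 3D6 mouse 81, 4 without 3D6 mouse 83).

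For site, CD11b, not called in any of these, gave 0.57 with the housekeepers and turned to -0.083 with Rb IgG alone, -0.048 with Rt IgG2b alone, -0.055 with medians, -0.029 without regions of few nuclei, -0.060 without regions of high negative controls and -0.036 to 0.14 with a mouse left out (below 0 without IgG mouse 37 or 3D6 mouse 83). F4/80 gave 0.73 without division and 0.59 with Rt IgG2b alone, and the targets called (13) were 8 with the housekeepers or under Holm adjustment and 6 without division. Within 3D6 mice CD11b gave 0.81 with the housekeepers, 0.94 without division, 0.65 with Rb IgG alone, 0.66 with Rt IgG2b alone or with medians, 0.76 with the run as a block, 0.79 without regions of few nuclei and 0.73 under Holm adjustment, all short of the threshold, and 0.56 to 0.87 with a mouse left out. The targets called (7) were 4 with the run as a block or under Holm adjustment. Within IgG mice CD11b passed the threshold at -0.81 with Rb IgG alone and at -0.85 without regions of high negative controls, and F4/80 at 1.16 with the housekeepers, where CD11b turned to 0.33. The targets called (9) were 4 without division and 2 to 11 with a mouse left out (2 without IgG mouse 49). The site difference of the quotient and its lack of a treatment call held in all 11 alternatives each. In the 7 that left out a mouse neither outcome could change. All mice had a positive site difference, and the exact treatment test on the remaining mice cannot fall under 0.05. The treatment difference in leptomeninges was -0.35 to 0.11 with a mouse left out (above 0 without IgG mouse 29 or 3D6 mouse 83).

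The correlation of the pair in leptomeninges of 3D6 mice was 0.76 without division, 0.55 with the housekeepers and 0.55 as Spearman's rho, and in those of IgG mice -0.17 without regions of few nuclei. Around penetrating vessels it was 0.81 without division and 0.66 with the housekeepers in 3D6 mice, and in IgG mice 0.96 without division, 0.44 given the negative controls and 0.48 without regions of high negative controls. On Fisher's z, the leptomeningeal treatment difference in coupling turned to -0.30 without division and -0.28 with the housekeepers and was -0.13 to 0.49 with a mouse left out (lowest without IgG mouse 29). That around penetrating vessels turned to 0.11 without regions of high negative controls, and the site difference was -0.014 to 0.27 with a mouse left out (lowest without 3D6 mouse 81). The low partners changed sign. SMA with CD11b in leptomeninges was 0.48 without division, 0.52 with the housekeepers and 0.022 as rho, and SMA with F4/80 was 0.30 and 0.32 under the first pair. Around penetrating vessels, without division, with the housekeepers and without regions of high negative controls, FOXP3 with CD11b was 0.78, 0.42 and 0.089, CD4 with CD11b 0.82, 0.32 and 0.18, CD28 with F4/80 0.82, 0.45 and 0.12, and PD-1 with F4/80 0.78, 0.34 and 0.064. The cause was not tested in any of these cases. The results rest on 4 and 3 mice, on a divisor that itself tended to differ between groups in leptomeninges, and on low F4/80 counts.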
